A study of Mus musculus with 6 samples.

Results

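The transcripts described here are those of 10 interferon-inducible GTPases: the guanylate-binding proteins Gbp2, Gbp3, Gbp4, Gbp5 and Gbp7 and the immunity-related GTPases Irgm1, Irgm2, Igtp, Iigp1 and Tgtp1. They were chosen by name, as the rows of the gene tables that carry these symbols, and make up 10 of the 47729 genes in each table. The tables hold RNA sequencing of brown adipose tissue (BAT), the heat-producing fat of mammals, from 6 male wild type C57BL/6J mice. In 3 of them a 45% high-fat diet (HFD) was fed and in the other 3 a standard rodent diet, called the low-fat diet (LFD), from 6 to 10 weeks of age. The right interscapular BAT of single mice was used, ribosomal RNA was removed from total RNA, and single-end reads of 75 bases were taken. In each diet group the 3 sequenced mice had been picked for high, middle and low fat mass, and which replicate number was which was not given in the sources used here.

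Guanylate-binding proteins (GBPs) and immunity-related GTPases (IRGs) are large GTP-hydrolysing proteins that cells make after exposure to interferon, above all interferon-γ. Signals from the interferon-γ receptor reach genes through the GAS element and induce IRF1, and interferon regulatory factors such as IRF1 bind the ISRE element. The GTPases then gather on membranes around intracellular parasites and bacteria. The IRGM proteins (Irgm1, Irgm2 and Igtp) act as regulators that guard the cell's own membranes, whereas Iigp1 and Tgtp1 are effectors that coat and break the vacuole of the pathogen. Both families are found in macrophages, endothelial cells and many other cell types, so that in whole BAT their transcripts can come from adipocytes and from other cells.

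On the GRCm38 genome the genes lie in few clusters. Gbp5, Gbp7, Gbp3 and Gbp2 lie in that order on chromosome 3 between 142493978 and 142638008, with Gbp2b between Gbp3 and Gbp2. Gbp4 lies on chromosome 5, from 105115767 to 105139586, almost wholly inside the genes annotated as Gbp8 and Gbp9 on the same strand. Irgm1 (48861968 to 48871683) and Tgtp1 (48985327 to 48994172) belong to 1 cluster on chromosome 11, and Igtp (58199556 to 58207591) and Irgm2 (58199618 to 58222782) to another on that chromosome, where their annotations overlap by 7974 bases on the same strand.

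The start-site windows of these genes are shown because the 10 transcripts varied together between mice, as described below. A link between the letters and that variation was not tested, and the genes were chosen as interferon-inducible. RefSeq promoter windows on GRCm38.p6, from 250 bases before to 50 bases after the transcript start, were matched for 8 of the 10 genes, with 9 windows in all (a pair of them for Gbp3), Gbp4 and Iigp1 being those not matched. Both strands were searched for the GAS letters TTCNNNGAA and for an ISRE core, GAAANNGAAA, whose matches on the opposite strand appear as the reverse complement. Capitals mark the matches in the excerpts. Tgtp1, Igtp and Irgm2 share an arrangement in which a GAS match is followed, after 2 bases, by an ISRE core match, whereas in Gbp3 and Irgm1 overlapping ISRE core matches stood without a GAS match, in Gbp2 a single ISRE core match did, and in Gbp7 a pair of GAS matches preceded the ISRE core match.
Tgtp1, chr11:48992294-48992354, minus strand: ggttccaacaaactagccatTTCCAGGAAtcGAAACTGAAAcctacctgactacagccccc
Igtp, chr11:58199491-58199551, plus strand: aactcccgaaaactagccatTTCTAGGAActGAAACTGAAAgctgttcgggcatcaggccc
Irgm2, chr11:58214882-58214942, plus strand: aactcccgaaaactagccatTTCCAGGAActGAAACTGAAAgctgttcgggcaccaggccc
Irgm1, chr11:48871415-48871470, minus strand: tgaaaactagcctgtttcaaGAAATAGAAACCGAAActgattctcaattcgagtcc
Gbp2, chr3:142620584-142620633, plus strand: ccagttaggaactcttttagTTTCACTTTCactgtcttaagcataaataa
Gbp3, chr3:142559979-142560034, plus strand: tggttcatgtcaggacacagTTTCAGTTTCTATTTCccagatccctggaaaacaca
Gbp7, chr3:142530210-142530312, plus strand: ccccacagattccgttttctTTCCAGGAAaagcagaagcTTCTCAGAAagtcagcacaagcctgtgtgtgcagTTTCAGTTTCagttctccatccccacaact

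An ISRE core match was present in 8 of the 8 genes with a window, and a GAS match in 5 of them (Gbp5, Gbp7, Tgtp1, Igtp and Irgm2). Counted by window, these were 8 and 5 of 9, since the other window of Gbp3 held neither. Among all 32851 windows of the same length, 3.44% held the ISRE core letters, 8.30% the GAS letters and 0.454% both. The ISRE core match began 77 bases before the start site in Tgtp1, 64 in Irgm2, 34 in Igtp and 59 in Gbp2. In Gbp5 it lay farther away, at 165 bases, between GAS matches at 245 and 52 bases. These matches describe letters only, and no binding of a factor was measured.

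**Figure D1:**
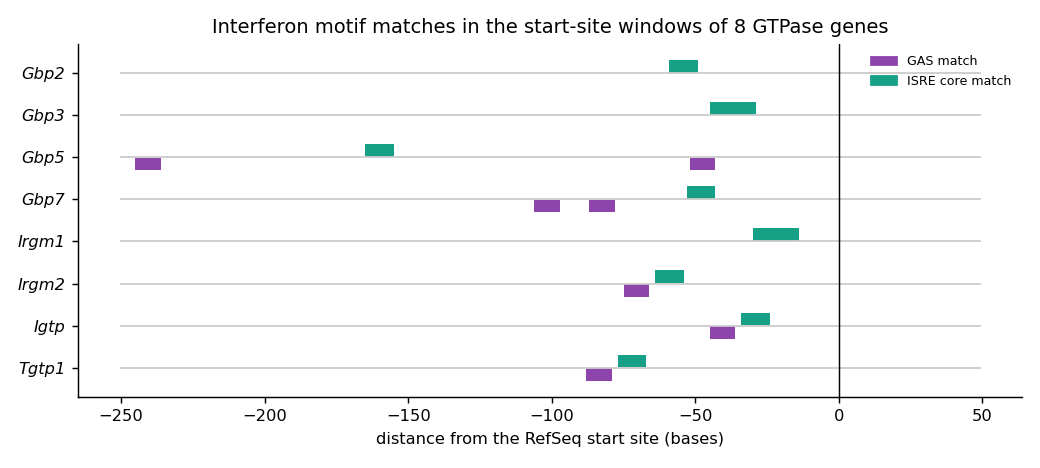
Positions of GAS matches (purple, below each line) and ISRE core matches (green, above each line) in the start-site windows of 8 GTPase genes; the x axis is the distance from the RefSeq start site in bases and each grey line is 1 window of 300 bases. All matches lie before the start, and the 3 genes Tgtp1, Igtp and Irgm2 show the adjacent pair.

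The libraries held 17156991 to 21603487 rounded counts each, and 17668 genes passed the filter on low counts, all 10 GTPases among them. The tissue label was checked against brown adipocyte markers, and the thermogenic uncoupling protein Ucp1 was detected in every mouse, from 796 to 4021 TPM (a relative abundance corrected for transcript length) in HFD-fed mice and from 11.03 to 443 TPM in LFD-fed mice. The defining brown markers Ucp1, Cidea and Elovl3 were low in LFD replicates 2 and 3. Ucp1 had 11.03 and 76.0 TPM, Cidea 18.9 and 38.6 TPM and Elovl3 0.71 and 1.59 TPM, which goes against the label of these 2 libraries. Ppara and Dio2 were also lower there than in LFD replicate 1. Cox8b had 388.1 and 121.6 TPM, against 1030 TPM in LFD replicate 1. Prdm16 was not lower, at 3.79 and 3.36 TPM against 3.22 TPM, and Pparg had 185.3 and 67.8 TPM against 204.3 TPM. The general adipocyte genes set these 2 libraries apart. Adipoq had 2015 TPM in LFD replicate 2 and 469.6 TPM in LFD replicate 3, against 1823 TPM in LFD replicate 1. Plin1 had 786.4 and 172.8 TPM, against 1012 TPM. The summed TPM of 12 skeletal muscle markers was 7.23 to 187.6 in HFD-fed and 1834 to 12714 in LFD-fed mice, so all 3 LFD libraries lay above all 3 HFD libraries. Mitochondrially encoded genes took 8.50% to 22.7% of the counts with HFD and 3.87% to 13.8% with LFD. The part of these differences in the GTPase values was not tested. In bulk tissue, fewer cells of a type and less RNA per cell cannot be told apart.

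All 10 GTPase transcripts had a higher mean in the BAT of HFD-fed than of LFD-fed mice, by 1.40-fold (Irgm2) to 6.49-fold (Tgtp1) in edgeR's fit, and none passed the study's thresholds of adjusted p under 0.01 and absolute log2 fold change above 1.5. These thresholds were passed by 0 of the 17668 genes tested (0%), in either direction. At an unadjusted p under 0.05 in edgeR's quasi-likelihood test, 8 of the 10 GTPases were higher with HFD, all but Gbp7 and Irgm2, where 3.86% of all tested genes were. With the replicate number as a block, 8 of the 10 were again higher at that threshold, against 8.75% of all genes, but they were not the same 8, since Gbp7 passed and Gbp2 did not. Without HFD replicate 3, Gbp3, Gbp4 and Tgtp1 passed, against 2.17% of all genes. Those 3 also passed without LFD replicate 1, against 6.01% of all genes. The median log2 fold change of the 10 was 1.27, against -0.05 over all tested genes, and it was 0.82 without HFD replicate 3. With DESeq2, the tool of the study, 1 of the 10 passed both thresholds, Tgtp1, with a log2 fold change of 2.71 ± 0.61 (SE, n = 3 mice per diet) and a DESeq2 adjusted p of 0.000657, where 0.355% of 29856 genes were called higher. Gbp3 had a DESeq2 adjusted p of 0.00361 with a log2 fold change of 1.32, short of the fold threshold. With limma on log2(TPM + 1), 0 of the 10 passed both thresholds, against 0.0126% of 15846 genes called higher. There 2, Gbp4 and Tgtp1, were higher at an unadjusted p under 0.05, against 1.61% of those genes.

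The values of single mice, in CPM, the count scaled to the TMM-normalized library size, showed how far the diets were apart. In log2 CPM, 4 of the 10 GTPases (Gbp3, Gbp5, Irgm1 and Tgtp1) lay without overlap above the LFD-fed mice in all 3 HFD-fed mice, where 6.72% of all tested genes were. For those 4 the exact two-sided permutation test gave p = 0.1, the smallest value that 3 against 3 mice allow. Without HFD replicate 1 all 10 were free of overlap, against 13.3% of all tested genes, and without LFD replicate 2 this held for 9, against 9.79%. In the other 6, HFD replicates 2 and 3 lay above every LFD-fed mouse, and the overlap came from HFD replicate 1, which lay below LFD replicate 2 in 6 of 6. The same replicate numbers were also set against each other, although the labels do not state a pairing. All 10 GTPases were higher with HFD in all 3 pairs, which held for 21.1% of all tested genes. On the TPM scale all 10 were also higher in all 3 pairs, against 10.9% of the 15846 genes at 1 TPM or more in at least 3 mice, yet 0 of the 10 were free of overlap, because HFD replicate 1 lay below LFD replicate 2 in 10 of 10. The share of all genes free of overlap in TPM was not computed, so this 0 has no background beside it.

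**Figure D2:**
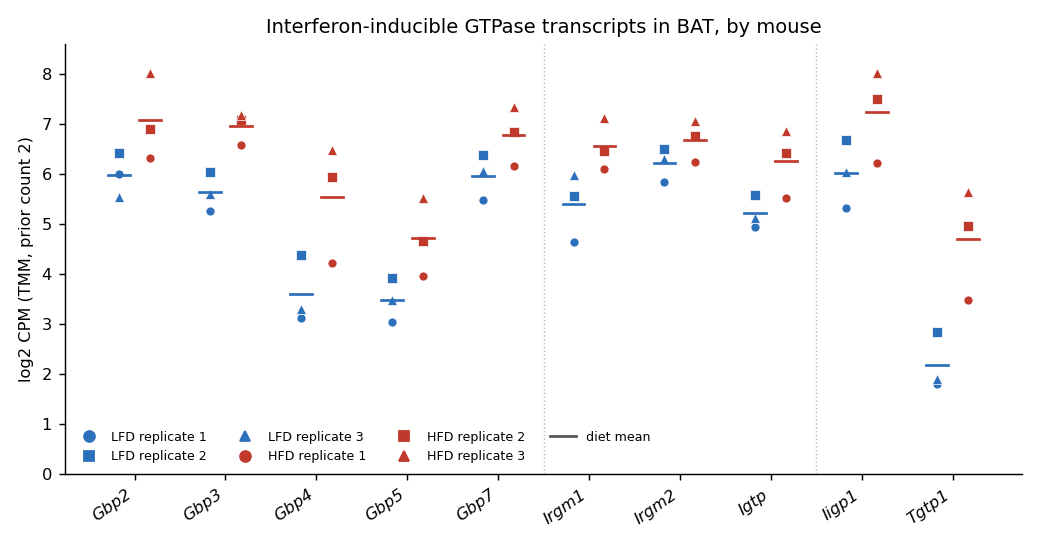
Log2 CPM (y axis) of the 10 GTPases (x axis) in each of 6 mice; blue is LFD, red is HFD, symbols give the replicate number, horizontal bars are diet means, and dotted lines separate GBPs, IRGM regulators and IRG effectors. HFD replicate 3 is the highest mouse in 10 of 10 genes and LFD replicate 1 the lowest in 9 of 10, with Gbp2 the exception.

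Among the effector IRGs, Tgtp1 had the greatest difference. Its CPM was 11.1, 31.1 and 50.1 in HFD replicates 1 to 3 and 3.38, 7.14 and 3.66 in LFD replicates 1 to 3. Every HFD-fed mouse was thus above every LFD-fed mouse, although HFD replicate 1 was nearer to LFD replicate 2 than to the other HFD-fed mice. The log2 fold change was 2.70 ± 0.60 (SE, n = 3 per diet), with an edgeR adjusted p of 0.192, and it stayed between 2.16 and 3.12 when any 1 mouse was left out.

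The reads of Tgtp1 are hard to tell from those of its neighbour Tgtp2, since 74.6% of the 75-base windows of its transcripts also occur in Tgtp2. RSEM divided the reads between both, and the deposited posterior SD of its count reached 17.7% of the count in 1 mouse, compared with at most 1.69% for the other 9 GTPases. Tgtp1 took 23.6%, 27.8% and 29.5% of the pair's expected counts in HFD replicates 1 to 3 and 25.8%, 24.3% and 19.9% in LFD replicates 1 to 3, so the shares overlapped between diets. Summed, the pair reached 47.3, 112 and 169.5 CPM with HFD and 13.2, 29.5 and 18.4 CPM with LFD, without overlap in CPM. On the TPM scale the diets overlapped. There Tgtp1 and Tgtp2 had 8.74 and 13.71 TPM in HFD replicate 1, both below the 11.32 and 14.97 TPM of LFD replicate 2. The log2 fold change of the sum was 2.43 ± 0.53, with an edgeR adjusted p of 0.188.

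Iigp1, the effector best known from its action on the Toxoplasma vacuole, lies on chromosome 18, from 60376027 to 60392634, and shared none of its 75-base windows with another gene. Its CPM was 74.9, 181.2 and 259 in HFD replicates 1 to 3 and 40.2, 102.3 and 65.5 in LFD replicates 1 to 3. HFD replicate 1 lay between the LFD-fed mice, and HFD replicates 2 and 3 lay above all of them. The log2 fold change was 1.31 ± 0.53, with an edgeR adjusted p of 0.465.

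The 3 regulatory IRGs had smaller differences. Irgm1, which is also needed for autophagy of bacteria, had 68.9, 87.5 and 139.4 CPM with HFD and 25.0, 47.0 and 63.2 CPM with LFD, for replicates 1 to 3 of each. The diets did not overlap, but HFD replicate 1 exceeded LFD replicate 3 by little. Its log2 fold change was 1.13 ± 0.42, with an edgeR adjusted p of 0.415. Igtp, a regulator found on the endoplasmic reticulum and on lipid droplets, had 45.9, 85.6 and 116.7 CPM with HFD and 30.7, 47.8 and 34.95 CPM with LFD. HFD replicate 1 was just under LFD replicate 2, and the log2 fold change was 1.13 ± 0.38, with an edgeR adjusted p of 0.371. Irgm2, which is found on the Golgi, had 75.5, 108.3 and 133.8 CPM with HFD and 57.6, 90.9 and 78.3 CPM with LFD. Here HFD replicate 1 was below both LFD replicate 2 and LFD replicate 3, and the log2 fold change of 0.49 ± 0.30 had an edgeR adjusted p of 0.651 and was the smallest of the 10. It was 0.28 without HFD replicate 3 and 0.32 without LFD replicate 1. Igtp shares 7.80% of its 75-base windows with Irgm2.

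Gbp4 had the greatest difference among the GBPs. Its CPM was 18.5, 61.0 and 89.0 in HFD replicates 1 to 3 and 8.62, 20.7 and 9.76 in LFD replicates 1 to 3. HFD replicates 2 and 3 were far above the LFD-fed mice, and HFD replicate 1 was within their range. The log2 fold change was 2.11 ± 0.62, with an edgeR adjusted p of 0.315, and it stayed between 1.61 and 2.61 when any 1 mouse was left out. Gbp5, which promotes inflammasome assembly, had 15.5, 25.2 and 45.8 CPM with HFD and 8.17, 15.1 and 11.03 CPM with LFD. HFD replicate 1 was only just above LFD replicate 2, and the log2 fold change was 1.33 ± 0.45, with an edgeR adjusted p of 0.373, and 0.83 without HFD replicate 3.

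Gbp2, a GBP recruited to bacteria and to the Toxoplasma vacuole, had 80.4, 120.2 and 258.4 CPM with HFD and 63.6, 85.3 and 46.8 CPM with LFD. Its difference leaned on HFD replicate 3, and without that mouse the log2 fold change of 1.23 ± 0.48 (edgeR adjusted p of 0.442) became 0.62. Gbp3 had 96.3, 136.2 and 145.8 CPM with HFD and 38.6, 65.5 and 48.7 CPM with LFD. In CPM the HFD-fed mice were all above the LFD-fed mice. On the TPM scale HFD replicate 1 (43.75 TPM) lay below LFD replicates 2 and 3 (50.74 and 45.22 TPM). Gbp3 had the smallest standard error of the 10, with a log2 fold change of 1.31 ± 0.29 and an edgeR adjusted p of 0.191. Gbp7, a GBP that acts against intracellular bacteria and in assembly of the phagocyte oxidase, had 71.1, 114.5 and 161.6 CPM with HFD and 44.5, 83.3 and 66.4 CPM with LFD. HFD replicate 1 was between the LFD-fed mice, and the log2 fold change was 0.84 ± 0.38, with an edgeR adjusted p of 0.506, and 0.52 without HFD replicate 3. Gbp7 shares 11.3% of its 75-base windows with other genes, mostly with the pseudogene Gm43802.

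**Figure D3:**
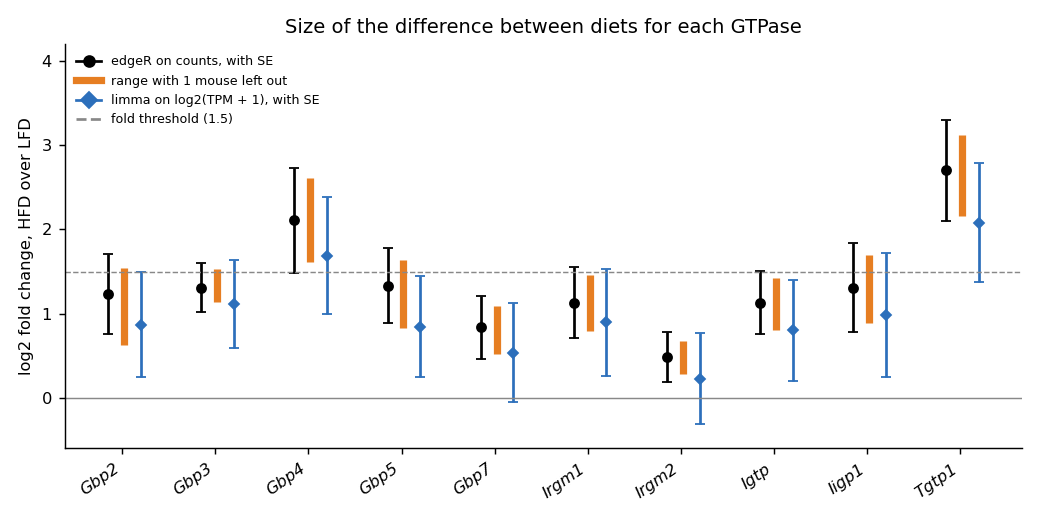
Log2 fold change of HFD over LFD (y axis) for each GTPase (x axis): black circles with SE are edgeR on counts, orange bars the range over the 6 fits with 1 mouse left out, and blue diamonds with SE limma on log2(TPM + 1). All values lie above 0, from 0.49 (Irgm2) to 2.70 (Tgtp1) in edgeR and from 0.23 (Irgm2) to 2.08 (Tgtp1) in limma, and the dashed line marks the fold threshold of 1.5.

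Compared per length, in TPM over all 6 mice, the GTPases ranked from Gbp2 (71.2 TPM), Gbp3 (59.8 TPM), Iigp1 (54.6 TPM) and Irgm1 (52.7 TPM) over Igtp (39.8 TPM), Irgm2 (34.6 TPM) and Gbp7 (29.8 TPM) down to Tgtp1 (21.2 TPM), Gbp4 (17.1 TPM) and Gbp5 (9.63 TPM). Of the 9 neighbouring pairs in this order, 2 differed by more than the SD of their log2 ratio over mice, Irgm2 above Gbp7 and Gbp7 above Tgtp1, each in 5 of 6 mice. The gap between Gbp7 and Tgtp1 lay in the LFD-fed mice, with means of 23.6 and 6.50 TPM, whereas the means with HFD were 36.1 and 35.8 TPM and Tgtp1 was the higher one in HFD replicate 3. Irgm2 and Gbp7 had means of 31.7 and 23.6 TPM with LFD and of 37.6 and 36.1 TPM with HFD. The other 7 neighbours could not be ordered beyond that spread. The summed TPM of the 10 was 198, 536 and 837 in HFD replicates 1 to 3 and 119, 349 and 303 in LFD replicates 1 to 3. Of this sum the 5 GBPs took 50.9%, 47.4% and 49.3% with HFD and 52.3%, 48.0% and 42.0% with LFD, so that GBPs and IRGs held nearly equal parts in either diet.

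The make-up of the sum does not depend on how the mice are scaled to each other, and for 4 genes the diets did not overlap. Tgtp1 made up 6.20% ± 1.62 (SD, n = 3) of the summed TPM with HFD and 2.48% ± 0.755 with LFD, and Gbp4 4.80% ± 1.51 with HFD and 2.55% ± 0.660 with LFD. Tgtp1 and Gbp4 were higher in every HFD-fed mouse, Gbp4 by the smallest margin, 3.06% in HFD replicate 1 against 3.03% in LFD replicate 1. Conversely, Irgm2 took 7.71% ± 1.33 with HFD and 12.4% ± 0.773 with LFD, and Gbp7 took 7.02% ± 0.389 with HFD and 9.13% ± 0.417 with LFD, both lower in every HFD-fed mouse. Each of these 4 had an exact two-sided permutation p of 0.1, the smallest that 3 against 3 mice allow, and in the other 6 genes the diets overlapped. The shares sum to a fixed total, so the 10 are not independent of each other and the 4 are not separate results. Shares within the 10 have no counterpart over all genes to set beside this count. The share of Tgtp1 also rests on how RSEM divided reads between Tgtp1 and Tgtp2.

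**Figure D4:**
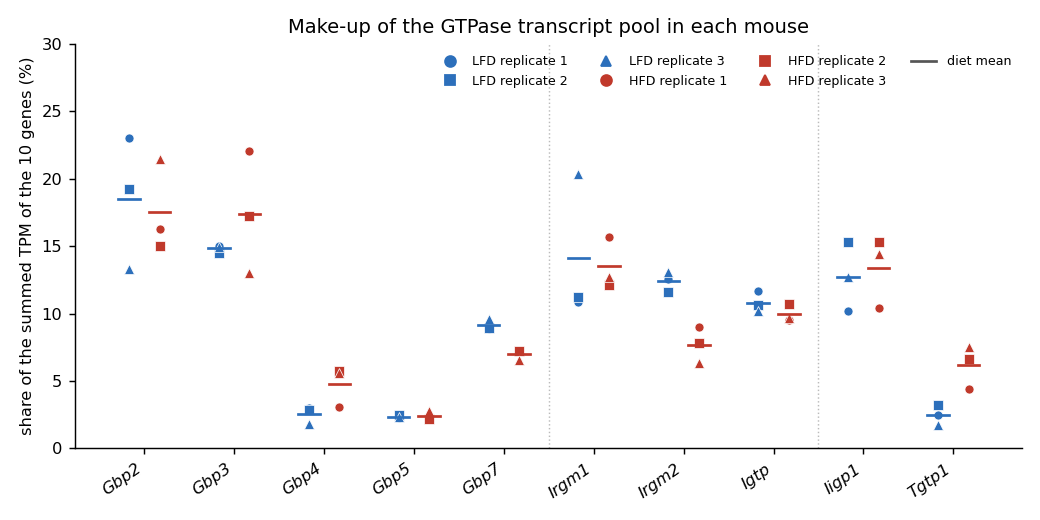
Share of each GTPase in the summed TPM of the 10 genes (y axis, %) in each of 6 mice, with LFD in blue, HFD in red, symbols for the replicate number and bars for diet means. Tgtp1 and Gbp4 lie higher with HFD (means 6.20% and 4.80%, against 2.48% and 2.55%), and Gbp7 and Irgm2 lower (7.02% and 7.71%, against 9.13% and 12.4%).

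Over the 6 mice the 10 GTPases went up and down together in log2 CPM. Pearson's r between members ranged from 0.73 (Gbp2 and Irgm1) to 0.996 over the 45 pairs, with a median of 0.936, as a description of 6 points that share their libraries, their normalization and the split into diets. The non-member genes whose log2 CPM was most like the mean of the 10 were Scarf1 (r of 0.99), Nxpe2 (0.99), Gimap4 (0.989), Gm15964 (0.987), Inip (0.987) and Tgtp2 (0.987). Scarf1 encodes a scavenger receptor of endothelial cells, and Gimap4 a GTPase of another family that is expressed in lymphocytes. Of these 6, Gimap4 had a log2 fold change of 1.36 ± 0.38 and an edgeR adjusted p of 0.287.

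Further GTPases, the rest of the GBPs and IRGs together with Mx1, Mx2 and Gvin1, were measured from 20 rows, of which 18 were tested. Here 4 were higher with HFD at an unadjusted p under 0.05, against 3.86% of all tested genes, and none was lower. Both edgeR thresholds were passed by 0, and the median log2 fold change was 0.88. Those 4 were Tgtp2 (log2 fold change 2.33), Gbp9 (1.59), the antiviral GTPase Mx1 (1.66) and 9930111J21Rik1 (0.92). The other 14 tested rows ranged from -1.27 (Gbp11) to 1.46 (Mx2) and comprised Gbp8 (1.38), Gbp6 in a pair of rows (1.22 and 1.02), Gbp10 (0.79), Gm12185 (0.93), Gm12250 (0.83), Gvin1 (0.74), Gm5431 (0.65), 9930111J21Rik2 (0.28), Gm4951 (0.12), F830016B08Rik (-0.02) and Irgq (-0.28). Gbp2b and Irgc1 had too few counts to be tested. The 10 GTPases described here were chosen with earlier results of these data known and are no random draw from the families.

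The signalling components of the pathway that induces the GTPases had a median log2 fold change of 0.51 over 18 tested genes. Transcripts of the ligand interferon-γ (Ifng) were near the limit of detection, with 1, 7 and 5 expected counts with HFD and 0, 2 and 0 with LFD, too few to be tested. The receptor subunits Ifngr1 and Ifngr2 had log2 fold changes of -0.58 ± 0.32 and 0.26 ± 0.31. Irf1 had 20.5, 54.5 and 91.0 TPM with HFD and 20.9, 47.2 and 40.4 TPM with LFD, with a log2 fold change of 0.84 ± 0.36 and an edgeR adjusted p of 0.480. On the TPM scale HFD replicate 1 lay just below the lowest LFD-fed mouse in Irf1. Of these 18, 2 were higher with HFD at an unadjusted p under 0.05, against 3.86% of all tested genes, and none was lower. The 2 were the interferon-induced transcription factor Batf2 (log2 fold change 1.68) and the phosphatase Ptpn6 (1.55). The macrophage transcription factor Irf8 had a log2 fold change of 1.11 ± 0.48, with an edgeR adjusted p of 0.488.

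Among other targets of interferon-γ, 7 of 19 tested were higher with HFD at an unadjusted p under 0.05 and 1 was lower, with a median log2 fold change of 0.85. At that threshold 3.86% of all tested genes were higher. The ubiquitin-like modifier Ubd (2.61), the T cell-attracting chemokines Cxcl10 (2.66) and Cxcl9 (2.37) and the tetrahydrobiopterin enzyme Gch1 (1.38) had the smallest p-values. The complement inhibitor Serping1 was the one lower gene (-1.12). Genes of the type I interferon response had 12 of 20 higher and none lower, with a median of 1.28, close to the 1.27 of the GTPases, led by Cmpk2 (1.67), Rsad2 (2.38), Bst2 (1.59) and Ifit3 (1.27). By contrast, the median of 21 cofactors and downstream partners of the GTPases (autophagy, ubiquitin and inflammasome genes) was 0.02, with 2 higher, the inflammasome components Casp1 (1.09) and Nlrp3 (1.95), and none lower, while the DNA sensor Aim2 (0.98) and the ubiquitin ligase Trim21 (0.62) missed that threshold. None of the genes in these lists passed both edgeR thresholds, whereas with DESeq2 those called were Tgtp2, Cxcl9, Cxcl10, Ubd, Cmpk2 and Rsad2. Many genes of the interferon lists respond to both types of interferon, so that the lists do not separate them.

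**Figure D5:**
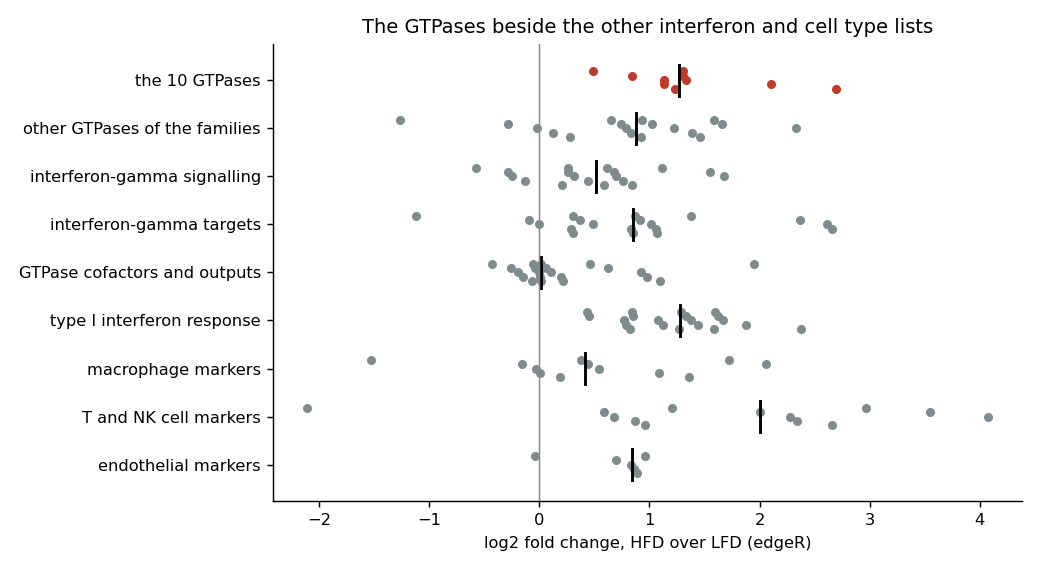
Log2 fold change of HFD over LFD from edgeR (x axis) for each tested gene of 9 lists (rows), with a black bar at the list median; the 10 GTPases are in red. Medians are 1.27 for the GTPases, 1.28 for the type I interferon response, 2.00 for T and NK cell markers, 0.85 for interferon-γ targets, 0.51 for its signalling, 0.41 for macrophage markers and 0.02 for GTPase cofactors.

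Markers of cells that could carry these transcripts also differed between diets. Of 13 tested T and NK cell markers, 8 were higher with HFD at an unadjusted p under 0.05 and none lower, with a median log2 fold change of 2.00. Of all tested genes, 3.86% were higher at that threshold. The cytotoxic genes Gzmb (4.08), Nkg7 (2.66), Prf1 (3.55) and Ncr1 (2.97) led the 8, all at low levels of at most 10.98 TPM. The rest of the 8 were Klrb1c (2.34) and the T cell markers Cd3g (2.28), Lck (2.00) and Cd2 (1.20). Other T cell markers, Cd3d (0.96), Cd8b1 (0.87), Cd8a (0.675), Cd4 (0.58) and Trac (-2.11), missed that threshold. The summed TPM of the list was 18.1 to 51.2 with HFD and 14.6 to 23.0 with LFD. The sum in LFD replicate 1 was mostly Trac, at 20.8 TPM. Of 12 tested macrophage markers, 3 were higher (Fcgr1 at 2.06, Cd68 at 1.72 and Adgre1 at 1.36) and 1 lower (Cd163 at -1.53), and their summed TPM overlapped, at 2005 to 4151 with HFD and 667 to 4671 with LFD. Fcgr1 is itself induced by interferon-γ. Endothelial markers had 1 of 6 higher, Emcn at 0.88, and the diets overlapped in log2 CPM in all 6. Tie1 at 0.96, Cdh5 at 0.86, Pecam1 at 0.83 and Kdr at 0.69 were short of that threshold, and Tek stood at -0.04. The summed TPM of the endothelial list was 95.1 to 408.7 with HFD and 120 to 245 with LFD. B cell markers had 0 of 4 in either direction (Cd79b at 1.21, Cd79a at 0.33, Ms4a1 at 0.30 and Pax5 at 0.05). Skeletal muscle markers had 12 of 12 lower, with a median of -6.21 and Mylpf, Ryr1, Tnni2 and Actn3 between -5.94 and -6.46. Over all 17668 tested genes, 1851 were at an unadjusted p under 0.05 in either direction, 682 of them higher. Brown adipocyte markers had 3 of 10 higher (Ppara at 2.56, Prdm16 at 1.298 and Dio2 at 2.00), with a median of 1.63, and Ucp1 stood at 3.67 ± 1.56. The general adipocyte genes of that list stood lower, Adipoq at -1.19, Plin1 at -0.78 and Pparg at 0.02. With edgeR 0 of the marker genes passed both thresholds, and with DESeq2 the 12 muscle markers and 6 T and NK cell markers did. Of 29856 genes, DESeq2 called 106 higher and 306 lower. No marker list had a gene at 0 in all mice, and the part of any of these cell types in the GTPase values was not tested.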

How the data were processed

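Gene tables of 6 mice were analysed, 3 per diet, grouped by the diet in the labels. The authors trimmed adapters with Trimmomatic 0.36 and quantified reads with RSEM 1.3.0 on GRCm38.p4 with Ensembl annotation, and the submitters' notes also name DESeq2 1.10.1. The deposited expected counts, not normalized, share reads that match several genes. The deposited TPM values are scaled for gene length and depth, and the deposited posterior SD of the counts is a score of how surely reads were assigned. Expected counts were rounded, giving 17156991 to 21603487 per mouse. The depth limits genes of few counts. The p-values set the difference between diets against the spread between mice. As these mice were picked for high, middle and low fat mass, their spread is not that of mice drawn at random.

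Genes were filtered with filterByExpr, normalized by TMM and tested with glmQLFit and glmQLFTest of edgeR 4.0.16 (R 4.3.3), with Benjamini-Hochberg adjustment over 17668 genes. A prior count of 2 was added for log2 CPM. Alternatives were DESeq2 1.42.0, limma 3.58.1 on log2(TPM + 1), RLE size factors, other filters, mitochondrially encoded genes left out, Tgtp1 and Tgtp2 summed, a replicate block, 1 mouse left out and no normalization factors. The fitting functions were tested on simulated counts with changes larger than those of the GTPases, so that test does not bear on changes of their size. No pair of same-diet libraries was a repeat. Replicate numbers are shared between diets in the labels, which do not state a pairing. Mice of the same number deviated together from their diet means (r of 0.498, 0.229 and 0.522), so a block was fitted, which rests on these same data. Normalization factors also rose from replicate 1 to 3 in both diets, from 0.815 to 1.21 with HFD and from 0.745 to 1.20 with LFD.

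All 10 members, the other GTPases, Irf1, Ifng, its receptor genes, up to 4 genes of each further list by unadjusted p and the 6 most similar genes were named, and 1 gene of that rule is not reported here. Trac, Cd3d, Cd3g, Cd2, Lck, Klrb1c, Cd4, Cd8a, Cd8b1, Tek, Kdr, Cidea, Elovl3, Cox8b, Adipoq, Plin1 and Pparg were added after their values were seen. The members and lists were chosen with earlier results of these data known. Positions and 75-base windows came from GENCODE M21 (GRCm38), a later annotation than the authors used.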

Additional observations from a re-analysis of the deposited data

How the results depend on the processing

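In edgeR 0 of the 10 GTPases passed both thresholds, also under every alternative but DESeq2, which called 1, Tgtp1 (log2 fold change 2.71). Of 150 alternative values of single GTPases, 149 kept their sign with no call and 0 were reversed. The 150 include the fit with Tgtp1 and Tgtp2 summed, which could hardly move the other members. A kept sign is not a kept size, as Gbp2 went from 1.23 to 0.62 without HFD replicate 3. The 8 GTPases at an unadjusted p under 0.05 became 2 with limma on log2(TPM + 1) and 3 to 9 with 1 mouse left out, the 3 being reached without HFD replicate 3 and without LFD replicate 1. The median log2 fold change of 1.27 ranged from 0.82 (without HFD replicate 3) to 1.503 (without HFD replicate 1). The 4 GTPases without overlap became 0 on log2(TPM + 1), 2 with no normalization factors (chosen after seeing the data), and 4 to 10 with 1 mouse left out, 10 without HFD replicate 1 and 9 without LFD replicate 2. For the 0 and the 2, the share over all genes was not computed. The limma fit lay below edgeR over all genes too, with a median of -0.20 against -0.05, and the cause was not tested. With the replicate block the median was 1.20, 8 GTPases were at an unadjusted p under 0.05, with Gbp7 in place of Gbp2, and the block changed no call at the study's thresholds. Over the further lists edgeR called 0 genes and DESeq2 24. The biological coefficient of variation over all genes was 0.448, and depth limited Ifng (at most 7 counts) and, among the GTPases, most of all Tgtp1, with 52.9 expected counts in LFD replicate 1.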
